A study of Homo sapiens with 12 samples.

Results

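Of the Krüppel-like factor (KLF) genes other than KLF1, 9 were examined in an erythroid precursor line, HUDEP-2, at rest and after activation of the receptor Kit. The set held 9 genes, KLF2, KLF3, KLF4, KLF6, KLF9, KLF10, KLF11, KLF13 and KLF16, taken by gene symbol from the 54628 genes of the count matrix. It was chosen with earlier results of these data known and is not the whole family. KLF5, KLF7, KLF8 and KLF15 also had enough counts to be tested and are given apart. All 9 had enough counts to be among the 15492 genes tested. Each of 4 groups had 3 RNA-seq libraries, and the groups crossed a guide RNA with a treatment. The guide was either scrambled (sgControl) or directed to an element upstream of EGR1 (sgEGR1), and it was delivered with KRAB-dCas9, a catalytically dead Cas9 fused to a repressor domain. This leaves the DNA sequence in place, so sgEGR1 lowers the activity of an element and does not delete a gene. HUDEP-2 cells had been grown with dexamethasone, stem cell factor (SCF), erythropoietin and doxycycline. Every group was then starved for 5 h with albumin and without those factors before 1 h with PBS or with 50 ng/mL of SCF, the ligand of Kit. The study calls its replicates biological, and the labels do not say whether they were separate cultures, so p-values measure the spread between these libraries, which may be technical.

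KLF proteins bind GC-rich and CACCC sequences through zinc fingers at the C terminus, and family members compete for the same sites. KLF1 is the erythroid member and drives globin and red cell membrane genes. KLF2, KLF4 and KLF6 are mostly activators. KLF3 is a repressor that recruits CTBP proteins and is itself switched on by KLF1 in red cell precursors. KLF9, KLF10, KLF11, KLF13 and KLF16 carry a domain that recruits the SIN3A corepressor. Several members, KLF4, KLF6 and KLF10 among them, are known as early response genes in other cell types.

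Totals ranged from 23.5 to 32.04 megacounts (estimated) per library. Levels are given as counts per megacount (CPM), with totals scaled by the trimmed mean of M-values (TMM), and comparisons between genes as RPKM, which divides CPM by the kilobases of annotated exon. EGR1, the gene next to the targeted element, measured 10.9, 5.99 and 7.45 CPM in sgControl PBS replicates 1, 2 and 3 and 2.04, 1.12 and 0.977 CPM in sgEGR1 PBS. After SCF it measured 207.5, 239.5 and 171.4 CPM in sgControl and 40.4, 57.4 and 203.6 CPM in sgEGR1. The library labelled sgEGR1 SCF replicate 3 therefore lay within the sgControl range for EGR1, against its label. For KLF2, KLF3, KLF4, KLF6, KLF10 and KLF16 the SCF response in sgEGR1 cells is also given without it. The replicate 1 libraries scored -35.3 to -21.7 on the leading axis of variation, a principal component, and the other 8 scored 6.85 to 23.7, so the main results are also given for replicates 2 and 3 only. All 11 erythroid markers were among the tested genes. All 3 lymphoid markers were at 0 in all 12 libraries, 2 of 3 endothelial, 2 of 4 megakaryocyte and 2 of 5 myeloid markers were at 0 as well, and the summed level was 12.9 to 35.6 CPM for the megakaryocyte and 7.73 to 15.7 CPM for the myeloid list. Bulk RNA cannot tell fewer expressing cells from less RNA per cell.

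Per length of exon, KLF3 was the most abundant of the 9 genes, with a mean of 41.0 RPKM over 12 libraries. KLF16 followed with 27.4 RPKM, KLF10 with 16.9, KLF6 with 10.2 and KLF11 with 6.42 RPKM. KLF9 averaged 2.55 RPKM and KLF13 1.55 RPKM. KLF4, with 0.443 RPKM, and KLF2, with 0.222 RPKM, were the lowest. The order of all neighbours except KLF4 and KLF2 was the same in 12 of 12 libraries, and KLF4 was above KLF2 in 11 of 12. Ranges over the libraries overlapped for KLF16 and KLF10 (20.5 to 36.1 against 10.3 to 21.6 RPKM), for KLF10 and KLF6 (7.76 to 13.1 RPKM for KLF6) and for KLF4 and KLF2, and not for the other neighbours. KLF1 was far higher than any of them, with a mean of 447 RPKM, and took 76.8% to 83.2% of the summed RPKM of all KLF genes. The plot of RPKM by gene shows this order.

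**Figure D1:**
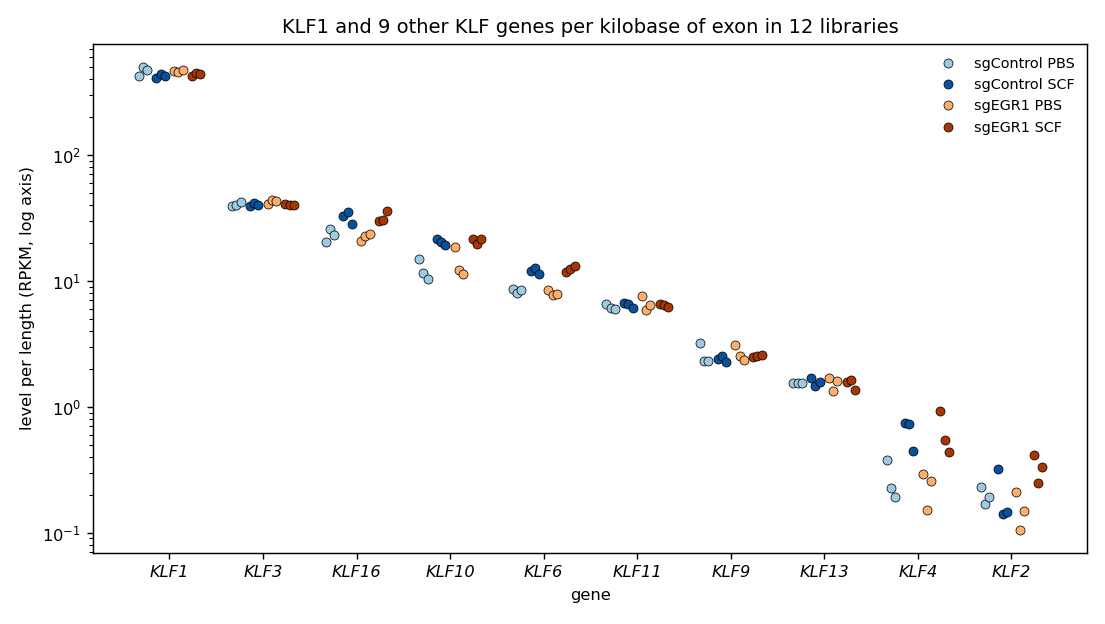
Level per length (RPKM, log axis) of KLF1 and the 9 genes of the set, 1 point per library, coloured by group. KLF1 averages 447 RPKM and KLF3 41.0 RPKM, and the 5 genes from KLF11 to KLF2 lie below 8 RPKM in every library.

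Whether SCF changed the KLF genes was asked within each genotype and over both. Over both genotypes 4 of 9 genes rose, KLF4, KLF10, KLF6 and KLF16, and none fell. The other 5, KLF2, KLF3, KLF9, KLF11 and KLF13, did not pass the test. In sgControl cells 3 of 9 were called higher (KLF10, KLF6 and KLF16), and in sgEGR1 cells 2 of 9 (KLF6 and KLF16). Of all tested genes, edgeR called 2.12% higher in sgControl cells, 1.81% higher in sgEGR1 cells, and 5.58% higher and 3.45% lower over both. The 9 genes were chosen with earlier results of these data known, so neither these counts nor the medians below are a test. KLF5, KLF7, KLF8 and KLF15, which are not among the 9, were called in none of the SCF comparisons. The median log2 fold change of the 9 genes was 0.06 in sgControl cells, 0.53 in sgEGR1 cells and 0.50 over both, beside -0.01, 0.00 and 0.00 for all tested genes. The middle gene was KLF11 in sgControl cells and KLF16 in sgEGR1 cells, where KLF2, with 8 to 34 counts, had 1.10 against 0.04. No difference of response between the genotypes was called for any of the 9 genes. With replicates 2 and 3 only, 3 genes were called in sgControl cells (KLF4, KLF6 and KLF10), 3 in sgEGR1 cells (KLF6, KLF10 and KLF16) and 4 over both. Without the library labelled sgEGR1 SCF replicate 3, 4 genes were still called over both genotypes, and in sgEGR1 cells 1 was called, KLF6. Fits that left out any 1 library called 1032 to 1408 of all genes over both and 176 to 428 in sgEGR1 cells.

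**Figure D2:**
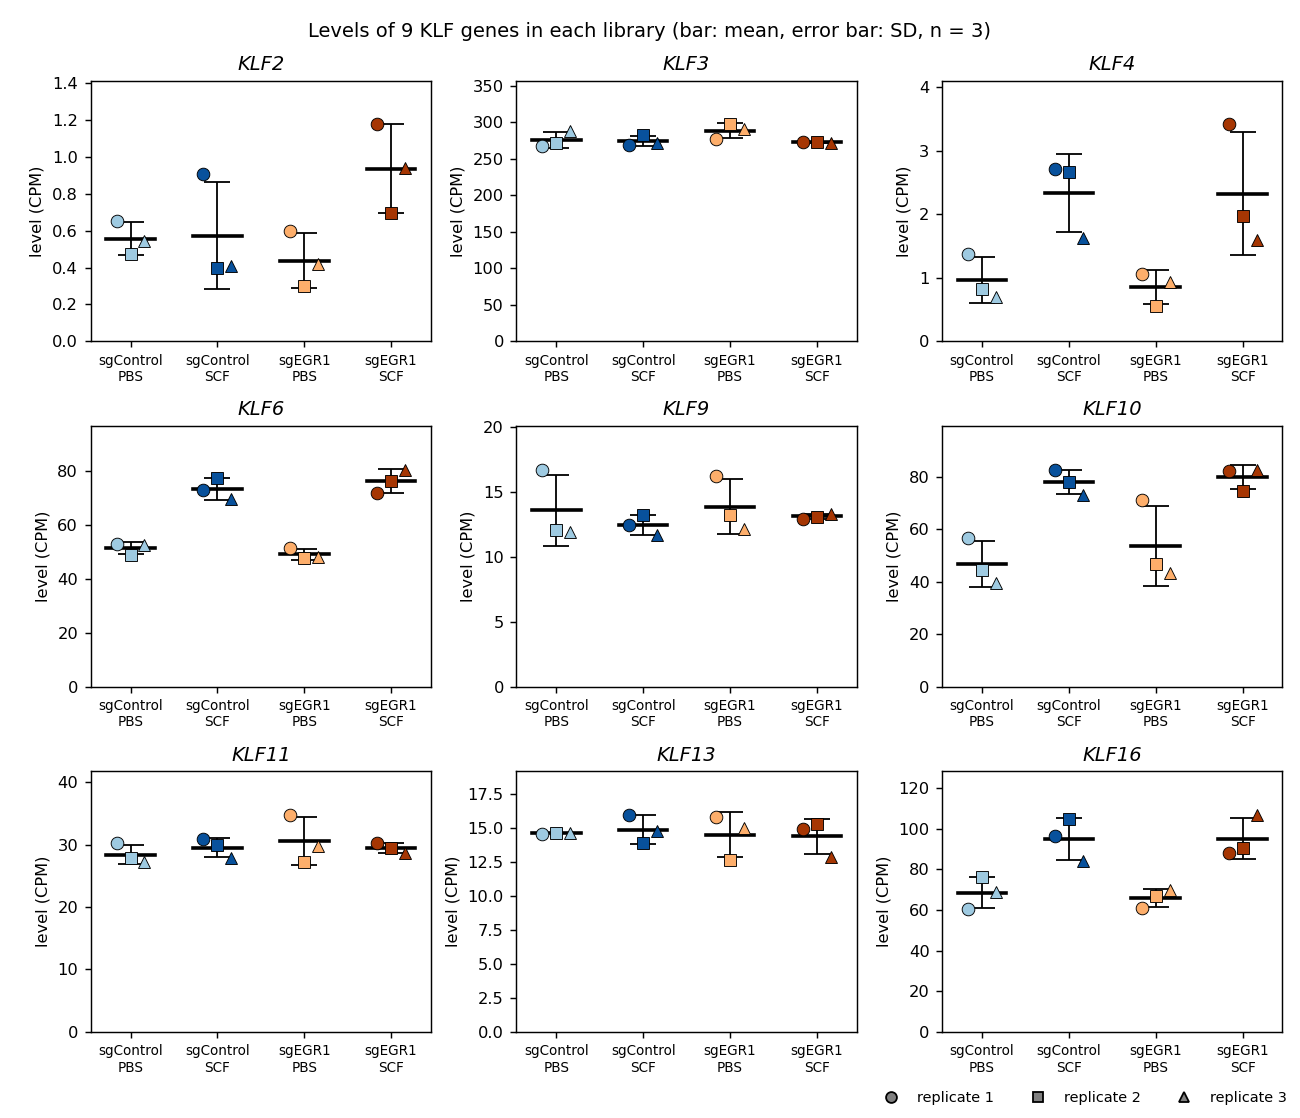
Level (CPM) of the 9 genes in each library by group, with replicates 1, 2 and 3 as circle, square and triangle, the mean as a bar and the SD as error bar (n = 3). KLF4, KLF6, KLF10 and KLF16 show every SCF library above every PBS library, as do 4.43% of tested genes. KLF3, KLF9, KLF11 and KLF13 overlap in sgControl cells.

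KLF6, a widely expressed activator, had the smallest standard error of the 4 genes that rose. It measured 52.9, 48.9 and 52.4 CPM in sgControl PBS and 72.9, 77.4 and 69.4 CPM in sgControl SCF. In sgEGR1 cells it measured 51.5, 47.7 and 48.2 CPM after PBS and 71.8, 76.4 and 80.5 CPM after SCF. All 6 SCF libraries lay above all 6 PBS libraries, which 4.43% of tested genes also showed in this direction. KLF6 rose by 42.4% in sgControl cells (log2 fold change 0.51, SE 0.059, edgeR adjusted p = 0.00082). In sgEGR1 cells it rose by 55.2% (0.63, SE 0.060, edgeR adjusted p = 0.00019). Over both genotypes the log2 fold change was 0.57 (95% interval 0.48 to 0.66, edgeR adjusted p = 8.5e-06). In sgEGR1 cells it was 0.60 when replicate 3 of sgEGR1 SCF was left out (edgeR adjusted p = 0.0011) and 0.71 with replicates 2 and 3 only (adjusted p = 0.00025), and in sgControl cells with replicates 2 and 3 only it was 0.54 (adjusted p = 0.0016).

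KLF16, a SIN3-binding repressor first described for dopamine receptor genes, followed a similar course with a wider spread. In sgControl cells it measured 60.7, 76.1 and 68.8 CPM after PBS and 96.5, 104.7 and 84.1 CPM after SCF. In sgEGR1 cells it measured 61.0, 66.8 and 69.6 CPM after PBS and 88.3, 90.5 and 107.0 CPM after SCF. Again every SCF library was above every PBS library, as for 4.43% of tested genes, and the highest was the library labelled sgEGR1 SCF replicate 3. The rise was 38.8% in sgControl cells (log2 fold change 0.47, SE 0.103, edgeR adjusted p = 0.031), beside 44.7% in sgEGR1 cells (0.53, SE 0.103, edgeR adjusted p = 0.018). Over both it was 41.7% (0.50, 95% interval 0.34 to 0.66, edgeR adjusted p = 0.0012). The sgControl call was lost on leaving out sgControl PBS replicate 1 (adjusted p = 0.091) or 3 (0.10), or sgControl SCF replicate 1 (0.089) or 2 (0.12), and with replicates 2 and 3 only (log2 fold change 0.38, adjusted p = 0.080, all in edgeR). The sgEGR1 call was lost on leaving out sgEGR1 PBS replicate 1 (edgeR adjusted p = 0.057) or 2 (0.067), or the library labelled sgEGR1 SCF replicate 3 (0.44, adjusted p = 0.074).

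KLF10, an early response gene of TGF-beta signalling that acts as a SIN3-binding repressor, had the largest fold change among the genes above 10 CPM in sgControl cells and on average, but not in sgEGR1 cells, where that of KLF6 was larger. It measured 56.5, 44.3 and 39.3 CPM in sgControl PBS and 82.5, 78.1 and 73.2 CPM in sgControl SCF. In sgEGR1 cells the values were 71.2, 46.6 and 43.3 CPM after PBS and 82.3, 74.6 and 82.7 CPM after SCF. Within each genotype the groups did not overlap, as for 19.6% of tested genes in sgControl and 21.2% in sgEGR1 cells in either direction. Over both genotypes all SCF libraries lay above all PBS libraries, as for 4.43% of tested genes. The PBS libraries were spread widely, with replicate 1 highest in both genotypes. The ratio of SCF to PBS was 1.46, 1.76 and 1.86 for replicates 1, 2 and 3 in sgControl cells and 1.16, 1.60 and 1.91 in sgEGR1 cells. KLF10 rose by 66.6% in sgControl cells (log2 fold change 0.74, SE 0.167, edgeR adjusted p = 0.039). In sgEGR1 cells the log2 fold change was 0.58 (SE 0.167, edgeR adjusted p = 0.10), which did not pass the test. With replicates 2 and 3 only it passed in both, with log2 fold changes of 0.86 (edgeR adjusted p = 0.00024) and 0.81 (adjusted p = 0.00030). That setting keeps the library labelled sgEGR1 SCF replicate 3, where the ratio was highest. With only this library left out, the log2 fold change in sgEGR1 cells was 0.55 (edgeR adjusted p = 0.24). Over both genotypes and all replicates it was 0.66 (95% interval 0.40 to 0.91, edgeR adjusted p = 0.0046). The sgControl call was lost on leaving out sgControl PBS replicate 2 (adjusted p = 0.14) or 3 (0.15), sgControl SCF replicate 1 (0.11), 2 (0.10) or 3 (0.083), or any sgEGR1 SCF library (0.052, 0.058 and 0.057 for replicates 1, 2 and 3, all in edgeR). Leaving out sgEGR1 PBS replicate 1 gave KLF10 a call in sgEGR1 cells (log2 fold change 0.83, edgeR adjusted p = 0.0065).

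KLF4, a pluripotency factor that also restrains proliferation, had the largest fold change of the 9 genes at a low level. It measured 1.37, 0.827 and 0.698 CPM in sgControl PBS and 2.72, 2.67 and 1.63 CPM in sgControl SCF. In sgEGR1 cells it measured 1.06, 0.559 and 0.942 CPM after PBS and 3.42, 1.98 and 1.59 CPM after SCF. These levels rest on 15 to 99 counts per library. All SCF libraries lay above all PBS libraries, as for 4.43% of tested genes. The log2 fold change was 1.27 in sgControl cells (SE 0.365, edgeR adjusted p = 0.098) and 1.44 in sgEGR1 cells (SE 0.371, edgeR adjusted p = 0.066), neither of which passed the test. Over both genotypes KLF4 rose 2.56-fold (log2 fold change 1.35, 95% interval 0.79 to 1.92, edgeR adjusted p = 0.0064), which ranked 108 of 15492 tested genes. With replicates 2 and 3 only, it was called in sgControl cells (1.49, edgeR adjusted p = 0.045) and not in sgEGR1 cells (1.24, adjusted p = 0.075). With replicate 3 of sgEGR1 SCF left out it was 1.66 in sgEGR1 cells (edgeR adjusted p = 0.068).

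KLF2, which is known for quiescence of lymphocytes and endothelium and for embryonic globin, was close to the detection limit with 8 to 34 counts per library. It measured 0.650, 0.473 and 0.543 CPM in sgControl PBS and 0.907, 0.400 and 0.409 CPM in sgControl SCF, and these overlapped. In sgEGR1 cells it measured 0.596, 0.298 and 0.419 CPM after PBS and 1.17, 0.694 and 0.937 CPM after SCF, and these did not, as for 21.2% of tested genes in either direction. The log2 fold changes were 0.04 (SE 0.402, edgeR adjusted p = 0.99) and 1.10 (SE 0.402, edgeR adjusted p = 0.21), and over both 0.57 (95% interval -0.05 to 1.19, adjusted p = 0.27). KLF2 was called in none of these comparisons, and its 95% intervals ran from -0.83 to 0.92 in sgControl and from 0.22 to 1.97 in sgEGR1 cells. The log2 fold changes of KLF2 with replicates 2 and 3 only were -0.32 and 1.18 (edgeR adjusted p = 0.79 and 0.19). Without sgEGR1 SCF replicate 3 that in sgEGR1 cells was 1.10 (edgeR adjusted p = 0.37).

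The remaining repressors lay near their PBS level after SCF. KLF3, the CTBP-binding repressor, ranged from 268.3 to 297.1 CPM over all 12 libraries. Its log2 fold change was -0.01 in sgControl cells (95% interval -0.10 to 0.08) and -0.08 in sgEGR1 cells (-0.17 to 0.01), where its PBS libraries of 277.4, 297.1 and 291.5 CPM lay above SCF libraries of 273.7, 272.5 and 272.1 CPM. These groups of KLF3 did not overlap, as for 21.2% of tested genes in either direction, and KLF3 did not pass the test (edgeR adjusted p = 0.40). Without sgEGR1 SCF replicate 3 its log2 fold change in sgEGR1 cells was -0.08 (edgeR adjusted p = 0.61). KLF11, the closest relative of KLF10, ranged from 27.2 to 34.8 CPM and had an average log2 fold change of 0.00 (95% interval -0.13 to 0.13). KLF13, a regulator of the chemokine gene CCL5, ranged from 12.7 to 15.98 CPM and had an average log2 fold change of 0.01 (-0.14 to 0.16). KLF9, a target of glucocorticoid and thyroid hormone receptors, ranged from 11.7 to 16.7 CPM and had an average log2 fold change of -0.10 (-0.31 to 0.11). With replicates 2 and 3 only, the average of KLF9 changed sign to 0.06 (edgeR adjusted p = 0.65), and those of KLF3 and KLF11 were -0.06 and 0.05. The intervals over all replicates leave room for changes of KLF9 about as large as -0.31, and hold those of KLF3 over both genotypes between -0.11 and 0.02. The plot of SCF log2 fold changes sets these genes beside the ones that rose.

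**Figure D3:**
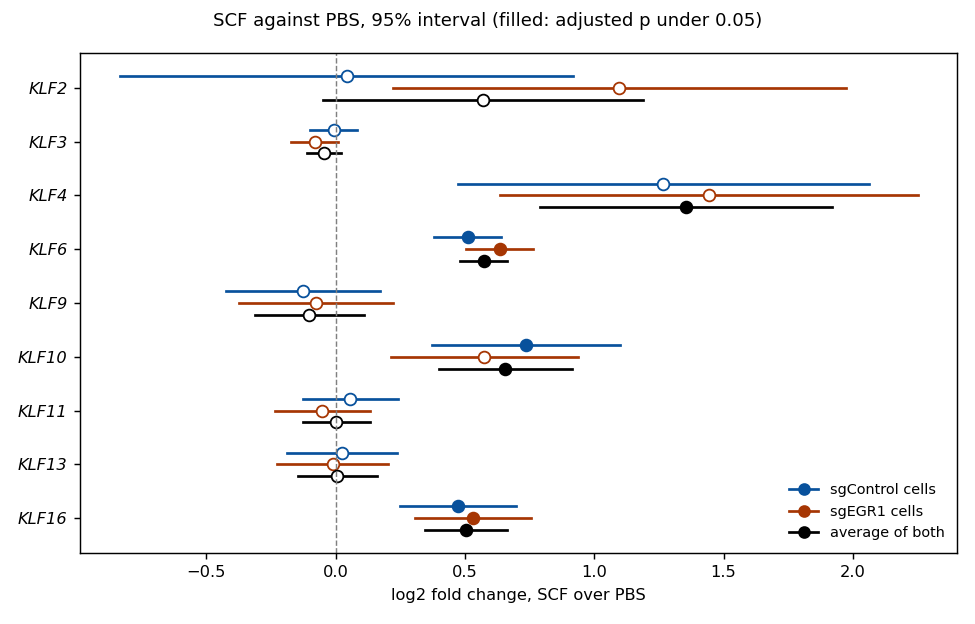
Log2 fold change of SCF over PBS with 95% interval in sgControl cells (blue), sgEGR1 cells (orange) and on average (black), filled where the edgeR adjusted p was under 0.05. KLF6 and KLF16 are filled in all 3, KLF10 in sgControl cells and the average, and KLF4, at 1.35, in the average.

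An exact permutation test of each gene by itself, two-sided and over all 400 arrangements of treatment within genotype, gave p = 0.005 for KLF4, KLF6, KLF10 and KLF16, which is the smallest it can give. The same exact permutation test gave p = 0.125 for KLF2, 0.11 for KLF3, 0.45 for KLF9, 0.935 for KLF11 and 0.945 for KLF13. Within 1 genotype, an exact permutation test of 3 against 3 libraries cannot go below p = 0.1.

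The share of the 9 genes in the RNA of the family was higher after SCF. Together they took 16.9% ± 1.15 (SD, n = 3) of the summed RPKM of all KLF genes in sgControl PBS and 21.4% ± 0.980 in sgControl SCF. In sgEGR1 cells this share was 17.3% ± 0.431 after PBS and 20.9% ± 0.790 after SCF. Within the 9 genes, KLF3 took 42.8% ± 1.84 in sgControl PBS and 34.9% ± 1.58 in sgControl SCF, and 43.5% ± 2.73 and 34.4% ± 1.28 in sgEGR1 cells. KLF16 took 24.3% ± 2.69 and 27.6% ± 1.59 in sgControl cells, and 22.7% ± 2.11 and 27.4% ± 1.97 in sgEGR1 cells. Ratios of 4 pairs of close relatives were also taken, a comparison chosen after their values were seen and so given with no test. The log2 ratio of KLF10 to KLF11 was 0.70 ± 0.188 in sgControl PBS and 1.397 ± 0.016 in sgControl SCF, and 0.78 ± 0.245 and 1.43 ± 0.095 in sgEGR1 cells. For KLF9 and KLF13 the same log2 ratio was -0.13 ± 0.279 and -0.26 ± 0.161 in sgControl cells and -0.07 ± 0.202 and -0.13 ± 0.153 in sgEGR1 cells, which overlapped. For KLF4 and KLF2 it was 0.68 ± 0.340 and 1.96 ± 0.526 in sgControl cells, and 0.86 ± 0.162 and 1.21 ± 0.424 in sgEGR1 cells. The latter overlapped (0.77 to 1.05 after PBS, 0.72 to 1.49 after SCF), and KLF2 had few counts. For KLF3 and KLF8 it was 3.45 ± 0.026 and 3.55 ± 0.076 in sgControl cells, and 3.50 ± 0.189 and 3.54 ± 0.097 in sgEGR1 cells, where they overlapped.

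Among the 9 other KLF genes, 5 were tested (KLF1, KLF5, KLF7, KLF8 and KLF15), and 0 were called for SCF in either genotype or on average by edgeR. KLF1 measured 654 to 804 CPM, and its average log2 fold change was -0.11 (SE 0.040, edgeR adjusted p = 0.11). The average log2 fold changes were 0.05 for KLF5, 0.40 for KLF7, -0.12 for KLF8 and -0.03 for KLF15, and KLF8 is, like KLF3, a CTBP-binding repressor. Of the 9 SP genes, which share the zinc fingers and the GC box, 6 were tested and 0 called, and the lowest edgeR adjusted p on average was 0.15.

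Promoter sequence of the 9 genes was examined as a description, with no test. RefSeq promoters on GRCh38.p14, from 250 bases before to 50 after a start, were found by symbol for 7 of the 9 genes and not for KLF3 and KLF10. Both strands were searched for 4 short words. The EGR-like word GCGTGGG was in 0 of the 7 genes and in 6.98% of 35116 promoters of the same length. The AP-1 word TGANTCA was in 0 of 7 and in 7.71% of promoters. The GC box GGGCGG was in 6 of 7 genes, all but KLF9, and in 45% of promoters, with 7 matches in KLF16, 6 in KLF2, 4 in KLF4, 3 in KLF13 and 2 in KLF6. KLF11 has 2 annotated starts with 2 and 7 matches. CACCC was in 2 of 7, KLF11 and KLF13, and in 59.9% of promoters. The CArG box, the site of SRF, was added after the data were seen, and was in 0 of 7 and in 1.29% of promoters. The words can share end letters, as GCGTGGG with GGGCGG, and a CACCC and a GC box share 1 base in KLF13. G and C made up 86.0% of the KLF16 promoter, 70.7% of that of KLF6 and 32.7% of that of KLF9. For KLF4, which rose, the share was 69%. Among genes that did not pass the test it was 80.7% for KLF2 and 78.3% for KLF13. The 2 starts of KLF11, also not called, had 77.3% and 75.3%. KLF9 thus had the lowest share of the 7 genes with a promoter, those that rose included. Whether the annotated starts are used in HUDEP-2 was not examined. Shown are the stretches upstream of every annotated exon of KLF6 and KLF16, which rose, and of KLF9, which did not pass the test, in lower case with GGGCGG on either strand in capitals, 5′ to 3′ on the minus strand.
KLF6, chr10:3785282-3785459: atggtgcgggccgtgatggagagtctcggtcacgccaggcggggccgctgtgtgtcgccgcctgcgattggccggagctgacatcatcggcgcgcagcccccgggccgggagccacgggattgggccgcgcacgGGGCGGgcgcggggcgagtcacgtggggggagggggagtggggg
KLF16, chr19:1863580-1863829: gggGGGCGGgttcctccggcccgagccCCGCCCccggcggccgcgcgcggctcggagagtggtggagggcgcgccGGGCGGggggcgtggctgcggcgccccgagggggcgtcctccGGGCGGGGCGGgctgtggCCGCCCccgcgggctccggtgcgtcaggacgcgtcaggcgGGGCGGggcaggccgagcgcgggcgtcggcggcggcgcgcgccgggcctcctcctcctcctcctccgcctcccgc
KLF9, chr9:70414658-70414907: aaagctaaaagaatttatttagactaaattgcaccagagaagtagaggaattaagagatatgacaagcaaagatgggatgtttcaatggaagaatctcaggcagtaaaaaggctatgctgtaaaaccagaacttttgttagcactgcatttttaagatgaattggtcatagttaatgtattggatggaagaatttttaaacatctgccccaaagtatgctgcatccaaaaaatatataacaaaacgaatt
The KLF6 stretch holds 1 GC box in 178 bases, the KLF16 stretch 7 in 250 and the KLF9 stretch 0 in 250. KLF2, KLF11 and KLF13, which did not pass the test, also held GC boxes, so this word did not separate the genes that rose from those that did not. A match is a run of letters and not a measured binding site.

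On GRCh38 with GENCODE v44 the genes lie on 7 chromosomes. KLF6 spans chr10:3775996-3785281 and KLF16 chr19:1852399-1863579, both on the minus strand, and KLF10 spans chr8:102648784-102655725 and KLF4 chr9:107484852-107490482, also on the minus strand. Exons of KLF3, KLF4, KLF11 and KLF16 are crossed by a gene on the opposite strand, and whether counting used strand was not stated, so reads of those partners cannot be told apart from these genes. The partner of KLF3, KLF3-AS1, had 8 to 42 counts per library. Pseudogenes named after KLF genes had at most 10 counts.

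Whether sgEGR1 altered the KLF genes was asked after PBS, after SCF and for the SCF response itself. None of the 9 genes passed the test in any of these. Of all tested genes edgeR called 0.00% in each of the 3 comparisons, although 715, 361 and 306 genes had an unadjusted p under 0.05, and none of the 9 KLF genes was among these. EGR1 was not called either, though after PBS it averaged 8.10 CPM in sgControl and 1.38 CPM in sgEGR1 cells, with no overlap of libraries. The lack of a call therefore does not show that a KLF gene was unchanged. Every edgeR adjusted p of the 9 genes was at least 0.999. DESeq2 also called 0 of the 9 in each comparison, and over all genes it called 20, 5 and 4. The precision of these contrasts differed greatly between genes. For KLF3 the sgEGR1 minus sgControl difference was 0.06 after PBS (95% interval -0.03 to 0.16) and -0.01 after SCF (-0.10 to 0.08). For KLF6 it was -0.07 (-0.20 to 0.07) and 0.06 (-0.07 to 0.19), and for KLF16 -0.06 (-0.28 to 0.17) and 0.00 (-0.22 to 0.22). For KLF10 it was 0.20 (-0.17 to 0.57) after PBS and 0.04 (-0.32 to 0.39) after SCF. KLF4 had intervals of -1.04 to 0.67 and -0.75 to 0.73, and KLF2 of -1.27 to 0.56 and -0.14 to 1.54, the widest of the 9 genes and the ones with the fewest counts. When replicate 3 of sgEGR1 SCF was left out, the differences after SCF were 0.01 for KLF6, -0.09 for KLF16, 0.01 for KLF10, -0.01 for KLF3, 0.20 for KLF4 and 0.70 for KLF2. Over replicates 2 and 3 only, they were -0.08 after PBS and 0.09 after SCF for KLF6, -0.09 and 0.06 for KLF16, 0.10 and 0.05 for KLF10, 0.07 and -0.03 for KLF3, -0.02 and -0.28 for KLF4, and -0.50 and 1.00 for KLF2. Neither setting called any of the 9 genes.

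The SCF response of KLF6 was 0.12 higher in sgEGR1 than in sgControl cells on the log2 scale (95% interval -0.06 to 0.31), and that of KLF16 was 0.06 higher (-0.26 to 0.38). For KLF10 the difference was -0.16 (-0.67 to 0.35), so a call in sgControl cells and none in sgEGR1 cells did not amount to a difference between them. For KLF4 it was 0.18 (-0.95 to 1.30). KLF2 had the largest difference, 1.05 (-0.19 to 2.30, SE 0.57), with SCF to PBS ratios of 1.97, 2.33 and 2.24 in sgEGR1 replicates 1, 2 and 3 and 1.395, 0.846 and 0.753 in sgControl cells, and it did not pass the test. After removal of that doubtful library, labelled sgEGR1 SCF replicate 3, the differences were 0.08 for KLF6, -0.03 for KLF16, -0.19 for KLF10, 0.39 for KLF4 and 1.05 for KLF2. With replicates 2 and 3 only they were 0.17 for KLF6, 0.15 for KLF16, -0.05 for KLF10, -0.25 for KLF4, which changed sign, and 1.499 for KLF2, and 0 of the 9 genes were called in either setting.

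**Figure D4:**
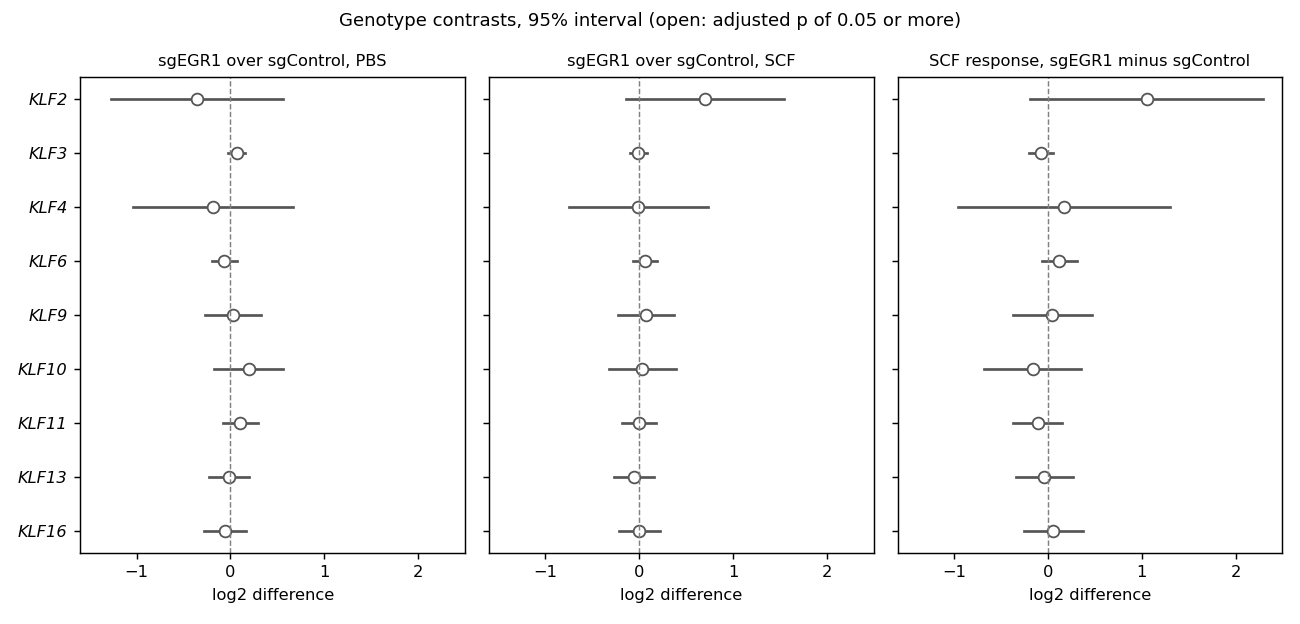
Log2 difference with 95% interval of the 9 genes for sgEGR1 over sgControl after PBS (left) and after SCF (middle), and of the SCF response in sgEGR1 minus that in sgControl cells (right). All points are open, since no adjusted p was under 0.05, and every interval includes 0, with KLF2 and KLF4 the widest.

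Levels of some of the 9 genes also differed between replicate 1 and replicates 2 and 3. In a model with a term for replicate 1, edgeR called 13.1% of all tested genes higher in replicate 1 and 4 of the 9 KLF genes, all higher. KLF10 was 0.32 higher on the log2 scale (edgeR adjusted p = 0.0092), KLF4 0.66 (adjusted p = 0.019), KLF11 0.14 (adjusted p = 0.031) and KLF2 0.69 (adjusted p = 0.046). KLF9 was 0.20 higher (edgeR adjusted p = 0.080), and its 2 highest libraries, 16.7 and 16.2 CPM, were the PBS libraries of replicate 1, while the other 10 lay between 11.7 and 13.3 CPM. KLF6 differed by 0.00. Glucocorticoid responsive genes, listed because the growth medium held dexamethasone and KLF9 responds to that hormone, were called higher in replicate 1 for 5 of 7 members, with a median log2 difference of 0.18 against 0.00 for all tested genes. PER1, a clock gene, was 0.59 higher (edgeR adjusted p = 9.1e-06) and TSC22D3, a classical glucocorticoid target, 0.31 higher (adjusted p = 4.6e-05). The part of this in the KLF values was not tested. Calls of replicate 1 hung on single libraries. Without sgControl PBS replicate 1 the edgeR adjusted p was 0.053 for KLF10 and 0.068 for KLF4, and without sgEGR1 SCF replicate 1 it was 0.11 for KLF4. The KLF11 call was lost without sgControl PBS replicate 1 or 3, sgControl SCF replicate 1 or 3, or sgEGR1 PBS replicate 1 or 2, with adjusted p up to 0.17. The KLF2 call was kept only without sgEGR1 PBS replicate 3 or sgEGR1 SCF replicate 3, and lost without each of the other 10 libraries, with adjusted p up to 0.23. KLF9 gained a call without sgControl SCF replicate 2 (edgeR adjusted p = 0.050) or sgEGR1 SCF replicate 1 (0.036), and KLF16 one for a lower level in replicate 1 without sgControl SCF replicate 3 (-0.18, adjusted p = 0.017).

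Genes around the KLF family were read from lists. Of 13 known regulators of KLF genes, 12 were tested, and after SCF 1 rose and 1 fell in each genotype, and 2 rose and 2 fell on average. Of all tested genes edgeR called 0.775% lower in sgControl cells and 0.788% lower in sgEGR1 cells, beside 2.12% and 1.81% higher. On average it called 5.58% higher and 3.45% lower. SRF, the serum response factor that drives early response genes, rose with log2 fold changes of 1.04 (SE 0.089, edgeR adjusted p = 9.7e-05) in sgControl and 1.13 (SE 0.089, adjusted p = 5.5e-05) in sgEGR1 cells. NR3C1, the glucocorticoid receptor, fell by 0.22 (edgeR adjusted p = 0.024) and 0.20 (adjusted p = 0.047) on the log2 scale. On average MAPK7, the ERK5 kinase upstream of KLF2 in endothelium, rose by 0.25 (edgeR adjusted p = 0.022), and FOXO3 fell by 0.19 (adjusted p = 0.020). The median of the list on average was -0.05, beside 0.00 for all genes.

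Of 13 cofactors, all tested, 0 were called within either genotype. On average 1 was called higher and 1 lower, beside 5.58% and 3.45% of all tested genes, too few to read as a result about cofactors. On average WWP1, a ubiquitin ligase known to act on KLF2, was 0.18 higher (edgeR adjusted p = 0.0058), and SIN3A, the corepressor of KLF9, KLF10, KLF11, KLF13 and KLF16, was 0.12 lower on the log2 scale (adjusted p = 0.028). CTBP1 and CTBP2, partners of KLF3, had average log2 fold changes of -0.04 and 0.01. Of 12 genes known as KLF targets in other cells, 7 were tested, and 1 rose and 1 fell in each genotype. Of all tested genes 2.12% and 1.81% were called higher in sgControl and sgEGR1 cells, and 0.775% and 0.788% lower. CCND1, the cyclin D1 gene, rose with log2 fold changes of 0.80 (edgeR adjusted p = 0.0038) and 0.78 (adjusted p = 0.0048). TXNIP, which restrains glucose uptake, fell by 0.66 (adjusted p = 0.0027) and 0.62 (adjusted p = 0.0040). Of the 7 glucocorticoid responsive genes, 1 rose after SCF on average, DDIT4 (log2 fold change 0.39, edgeR adjusted p = 0.0068), beside 5.58% of all tested genes. Within a genotype 0 of the 7 were called.

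For each gene called within a genotype, the genes with the most similar level across the 12 libraries were sought among 11172 genes by Pearson correlation of log2 CPM. For KLF6 SRF was among these (r = 0.984). For KLF10 they were CDCA5 (r = 0.970) and RHOB (r = 0.966), and for KLF16 ODC1 (r = 0.965) and MIDN (r = 0.961). The 12 points share treatment and replicate, and these values describe likeness and carry no test. Among the 9 genes themselves, KLF6 and KLF16 had the highest correlation (r = 0.904), followed by KLF6 and KLF10 (r = 0.864) and KLF4 and KLF10 (r = 0.862), again over 12 libraries of which 6 had SCF. RHOB, a small GTPase, rose with SCF by 1.30 and 1.49 on the log2 scale in sgControl and sgEGR1 cells. MIDN, which is known to carry early response proteins to the proteasome, rose by 0.75 and 0.69. CDCA5 rose in neither by the test, with 0.15 and 0.10, and ODC1, the first enzyme of polyamine synthesis, was called in sgControl cells (0.16, edgeR adjusted p = 0.047) and not in sgEGR1 cells (0.13, adjusted p = 0.11).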

How the data were processed

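RNA of 12 HUDEP-2 libraries in 4 groups was measured. HISAT alignments to hg38 were turned by the authors into the deposited table of estimated counts, made with StringTie, neither scaled for depth nor length. The annotation release was not given in the sources used here, and labels and methods name different library kits. Of the deposited values 0 were not whole, so rounding changed none. The column code SG2 was read as sgEGR1, the other construct of the labels. In R 4.3.3, edgeR 4.0.16 was run with TMM, filterByExpr (minimum count 10), 1 coefficient per group over all 12 libraries and the quasi-likelihood F test. Calls needed an adjusted p (Benjamini-Hochberg) under 0.05 over 15492 tested genes, with no minimum fold. The median square root of the dispersion was 0.104. Intervals are 95% from the fit. Log2 CPM for permutations used a prior count of 2. RPKM used exon lengths of GENCODE v44, which may not be the annotation of the counts. Alternatives included DESeq2 1.42.0, used by the study, other filters and scaling, a replicate block, and leaving out each library. The code was tested on simulated data. Residuals of libraries with the same replicate number correlated at 0.102 to 0.269 between genotypes and at 0.0077 to 0.272 between treatments. Replicate 1 stood apart in every group, so this does not show that libraries were paired. The main model used no pairing.

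The members and lists were chosen with earlier results of these data known. Named were the 9 genes, EGR1, the other KLF genes that passed the filter, up to 4 called genes per list by smallest p for the average response, and for each gene called within a genotype the 2 most correlated genes of at least 2 CPM, of which 1 is not reported here. PER1, TSC22D3, CTBP1 and CTBP2 were named after their values were seen.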

Additional observations from a re-analysis of the deposited data

How the results depend on the processing

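Of 1243 values of a KLF gene under an alternative, 1175 kept their side of the threshold and either their direction or a shift within the standard error, 40 lost a call, 19 gained one and 9 moved with no call. No called value changed sign, and 91 uncalled values did. KLF6 was called in all 21 alternatives in each genotype, and KLF10, KLF6 and KLF16 on average in all 20, while KLF4 was called in the 19 that kept it (a mean of at least 5 CPM removed it). In sgEGR1 cells 2 KLF genes were called, and 4 with DESeq2, a replicate block, a term for replicate 1, or that term after removal of sgEGR1 SCF replicate 3. Leaving out 1 library called 1 to 3 in sgControl cells and 1 to 2 in sgEGR1 cells. For replicate 1 against the others, 4 became 2 with no filter or DESeq2, and 0 to 4 on leaving out 1 library. The cause was not tested. In the SCF comparisons the lowest residual correlations of libraries with the same replicate number were 0.0077 in sgControl and 0.062 in sgEGR1 cells. There the replicate block called 1184 genes against 448 in sgControl cells, 1235 against 402 in sgEGR1 cells and 2799 against 1399 on average, and gave KLF4 a call in both genotypes and KLF10 in sgEGR1 cells. Between genotypes the block changed no call of a KLF gene. DESeq2 called 759 and 770 genes in the genotypes, a term for replicate 1 called 1289 and 1326, and only the groups compared called 192 and 250. Leaving out 1 library called 194 to 448 genes in sgControl and 176 to 428 in sgEGR1 cells. Between genotypes and for the difference of responses, where no gene was called, alternatives called 0 to 51. DESeq2 gave KLF2 no adjusted p for SCF. KLF2 and KLF4 had the fewest counts of the 9 genes, 8 to 34 and 15 to 99 per library.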
